A study of Mus musculus with 16 samples.

Results

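The potassium channel genes of the mouse colonic epithelium were taken as all genes whose symbol begins with Kcn followed by a subfamily letter and a number, with antisense transcripts left out. These were 93 of the 45513 genes in the count tables, and each was compared between tdTom+ and tdTom- cells sorted from the same mouse. The mice were homozygous for Atoh1(WT)CreERT2, in which the tamoxifen-dependent recombinase CreERT2 is made from the Atoh1 locus, and carried 1 copy of the Rosa26 tdTom reporter on a C57BL/6 background. Both populations therefore shared genotype and treatment and were separated by the reporter alone, so that a cell which expressed Atoh1 but escaped recombination would be sorted as tdTom-. Atoh1 is the transcription factor that commits intestinal progenitors to secretory fates, so tdTom marked cells that had expressed it. For this comparison the labels and the study's account of animal treatment both give 1 mg of tamoxifen on each of 3 days. The study's sequencing methods instead describe an injection of 3 mg and collection 24 h later. Males and females of 8 to 16 weeks were used in the study. Live EpCAM+ epithelial cells from crypt-enriched fractions of the colon were sorted by tdTom, which gave 8 tdTom+ and 8 tdTom- libraries from 8 mice.

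Potassium channels set the membrane voltage of epithelial cells and return to the blood or the lumen the potassium that the sodium pump and the cotransporters bring in. In colonic crypts, basolateral channels formed by Kcnq1 with the small accessory subunit Kcne3, and the calcium-activated channel Kcnn4, maintain the electrical driving force for chloride and fluid secretion, while the large-conductance (BK) channel Kcnma1 carries potassium secretion at the luminal side. Pore-forming alpha subunits fall into voltage-gated, inward rectifier, 2-pore-domain and calcium- or sodium-activated classes. Accessory subunits (Kcne, Kcnab, Kcnip and Kcnmb) form no pore and alter the gating or trafficking of the subunits with which they assemble.

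Total counts ran from 16482530 to 24218367 in tdTom+ libraries and from 18318172 to 45791503 in tdTom- libraries, where the largest was that of mouse 4 and the next held 20668605. The labels were checked against marker genes. All 10 goblet cell markers were higher in tdTom+ cells, and their summed level was 52731 to 108870 CPM (counts scaled to library size) against 2294 to 8881 in tdTom- cells, or 3.52% to 9.16% of the tdTom+ sum of the same mouse. Atoh1 itself is among the 10, and because the sort rests on its activity, its difference was no separate check. All 10 absorptive markers were lower in tdTom+ cells. The tdTom- population was not made up of absorptive cells alone: 9 of 12 enteroendocrine and 8 of 10 tuft markers were lower in tdTom+ cells, with summed levels of 290.5 to 780 against 1381 to 4046 CPM and of 58.8 to 119 against 111 to 184 CPM. Of 7 stem and proliferation markers tested 6 were lower in tdTom+ cells, and the tdTom- sum of that list was 113% to 150% of the tdTom+ sum of the same mouse. Of the immune, stromal, neuronal and endothelial lists, 3 of 10, 2 of 8, 3 of 8 and 1 of 4 genes had enough counts to be tested, of which 2, 1, 1 and 1 were lower and 0 higher in tdTom+ cells, and their sums did not exceed 29.3 CPM in any library. The part of any of these cell types in the levels of the channel genes was not tested. In sorted populations, fewer cells of a type and less RNA per cell cannot be told apart.

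Of the 93 genes, 29 passed the filter on low counts. At an adjusted p under 0.01 in edgeR's quasi-likelihood test with the mouse as a block, 12 were higher in tdTom+ cells and 9 were lower, where 28.4% and 28.9% of all 15841 genes tested were called in these directions and 57.2% in either. The called genes thus made up 72.4% of the channel genes that passed. Of the 29, 12 were higher and 8 lower by more than 1 on the log2 scale, where 7.60% and 9.16% of all genes tested were. The median size of the log2 fold change was 1.47 over the 29 genes and 0.33 over all genes tested, and the median log2 fold change was 0.10 and 0.0032. Each of the 21 called genes moved in the same direction in 8 of 8 mice. Because they were called from these same mice, this is no separate support. The share of all called genes that did so was not computed. For 18 of the 29 genes that passed, all of them called, the levels in the tdTom+ and tdTom- libraries did not overlap. Of all genes tested, called or not, 30.5% did not overlap. These proportions describe the genes that passed and lean towards difference: Kcne2, Kcnv2, Kcnc1 and Kcns3 passed solely through the population in which they were high, with 0 libraries over the filter level of 0.517 CPM in the other.

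**Figure D1:**
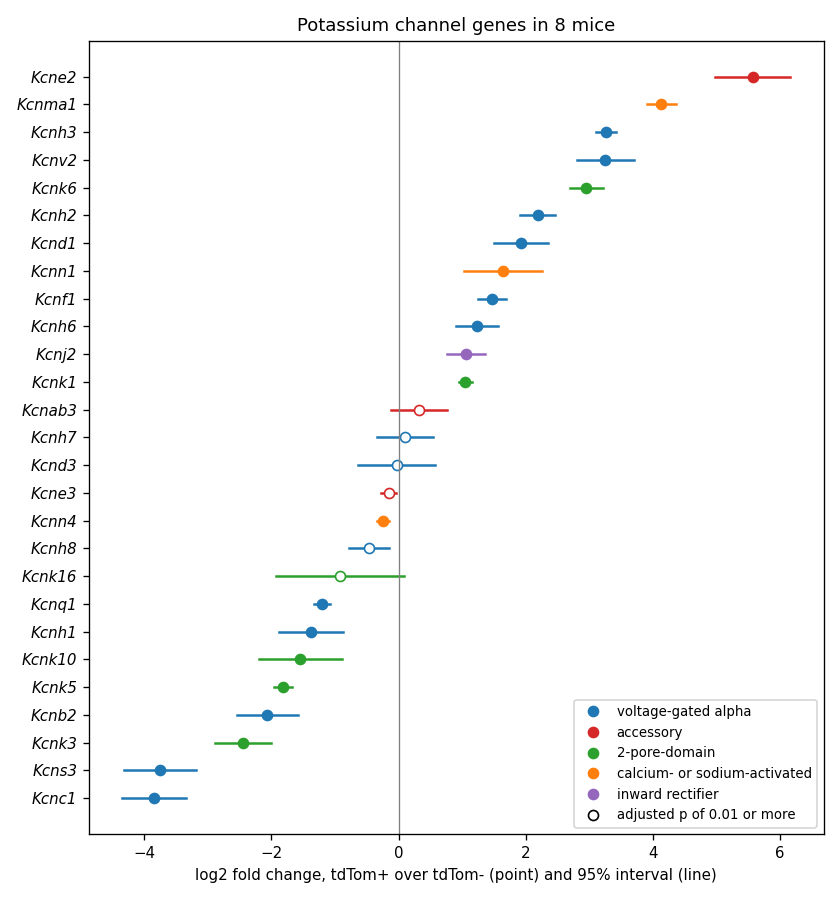
Log2 fold change between tdTom+ and tdTom- cells (x axis) of 27 of the 29 potassium channel genes that passed the filter (y axis), with 95% intervals as lines, colours for channel class and open points for genes with an adjusted p of 0.01 or more in edgeR. Positive values are higher in tdTom+ cells, and the range runs from Kcne2 at 5.57 to Kcnc1 at -3.84.

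Every class with more than 1 called gene held genes of both directions. Of 40 voltage-gated alpha subunits 16 passed, of which 6 were higher, 5 lower and 5 not called. Among 14 members of the 2-pore-domain class 6 passed, with 2 higher and 3 lower. Of 8 calcium- or sodium-activated channels 3 passed, with 2 higher and 1 lower. Among 16 accessory subunits 3 passed and 1 was higher, and of 15 inward rectifiers 1 passed and was higher. In the Shaker-related Kcna subfamily 7 of 8 genes had 0 counts in all 16 libraries, and none of the 8 passed.

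Genes at the extremes of both directions are shown with the 250 bases upstream of their RefSeq start (GRCm38.p6), because the cells were sorted on the activity of Atoh1 and basic helix-loop-helix factors such as ATOH1 bind E-boxes. Capitals mark the letters CANNTG, which read the same on both strands. The windows are Kcne2 at chr16:92292139-92292388 on the plus strand, Kcnma1 at chr14:24004206-24004455 on the minus strand, Kcnc1 at chr7:46396218-46396467 on the plus strand and Kcns3 at chr12:11150843-11151092 on the minus strand.
Kcne2: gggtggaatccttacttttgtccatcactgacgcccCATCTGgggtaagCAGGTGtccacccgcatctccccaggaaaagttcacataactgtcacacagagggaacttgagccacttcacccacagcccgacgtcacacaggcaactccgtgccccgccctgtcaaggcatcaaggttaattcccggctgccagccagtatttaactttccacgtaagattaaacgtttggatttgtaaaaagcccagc
Kcnma1: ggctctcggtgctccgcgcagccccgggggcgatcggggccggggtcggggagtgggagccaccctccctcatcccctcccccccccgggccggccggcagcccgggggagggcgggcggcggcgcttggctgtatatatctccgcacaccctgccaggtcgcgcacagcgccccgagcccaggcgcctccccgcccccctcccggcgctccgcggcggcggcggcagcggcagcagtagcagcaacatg
Kcnc1: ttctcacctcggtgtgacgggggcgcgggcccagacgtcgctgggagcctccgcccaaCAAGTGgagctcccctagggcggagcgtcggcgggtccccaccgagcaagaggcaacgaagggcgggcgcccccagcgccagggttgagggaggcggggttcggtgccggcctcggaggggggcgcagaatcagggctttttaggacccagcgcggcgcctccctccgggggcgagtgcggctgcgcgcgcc
Kcns3: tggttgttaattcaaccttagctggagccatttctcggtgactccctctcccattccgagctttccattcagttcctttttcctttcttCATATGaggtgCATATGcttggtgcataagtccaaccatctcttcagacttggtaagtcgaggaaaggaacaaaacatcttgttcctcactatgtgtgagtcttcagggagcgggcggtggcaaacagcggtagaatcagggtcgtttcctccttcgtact
CANNTG occurred 2 times in the Kcne2 window, 0 times in that of Kcnma1, 1 time in that of Kcnc1 and 2 times in that of Kcns3. The letters are common, being present in 66.2% of the 32851 RefSeq windows of this length, and in 16 of the 24 windows that the table holds for 19 of the 29 genes tested. A further RefSeq start of Kcne2 and of Kcns3 has a window with CANNTG 1 time. The start used for Kcnma1 lies 654 bases inside the gene as the count tables give it.

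Kcne2 (ENSMUSG00000039672, chr16:92292389-92298129, plus strand, GRCm38) showed the greatest difference of the 29 genes. It encodes an accessory subunit with a single membrane span that assembles with Kcnq1 and other voltage-gated pores, and with Kcnq1 it recycles potassium in the acid-secreting cells of the stomach. In tdTom+ cells it was at 5.80, 3.90, 3.56, 4.29, 4.39, 4.67, 3.23 and 5.03 CPM in mice 1 to 8. In tdTom- cells of the same mice it was at 0.10, 0, 0.053, 0.039, 0.27, 0.19, 0 and 0.095 CPM. The ranges were far apart, and the highest tdTom- library held 5 counts where the highest tdTom+ library held 127. The log2 fold change was 5.57 (SE 0.28, edgeR adjusted p = 7.29e-12), or 47.6-fold, and was 6.24 in mice 1 to 3 and 4.92 in mice 5 to 8. Because the tdTom- levels rest on 0 to 5 counts per library, the size of the fold is less certain than the direction. Despite the fold change, Kcne2 remained a minor transcript, at 2.47 ± 0.467 CPM per kilobase of exon (SD, n = 8) in tdTom+ cells.

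The other Kcne genes were examined beside Kcnq1, the voltage-gated pore with which they assemble. Kcne3 (ENSMUSG00000035165) had the highest mean level per kilobase of exon in both populations, although Kcnk1 exceeded it in the tdTom+ library of mouse 4 (25.1% against 21.3% of the summed channel level). Its levels were 120, 157 and 191 CPM (lowest, median and highest) in tdTom+ cells and 155, 172 and 203 CPM in tdTom- cells. The 2 ranges overlapped, and the log2 fold change of -0.16 (SE 0.056, edgeR adjusted p = 0.0203) did not pass the threshold. The 95% interval of this difference ran from -0.28 to -0.04, and without mouse 4 the value was -0.09 (edgeR adjusted p = 0.128). Kcnq1 (ENSMUSG00000009545), by contrast, was lower in tdTom+ cells, at 60.8, 71.6 and 105 CPM against 137, 158 and 252 CPM. No tdTom+ library reached the lowest tdTom- library, and the log2 fold change was -1.20 (SE 0.059, edgeR adjusted p = 5.92e-12), with -1.26 in mice 1 to 3 and -1.14 in mice 5 to 8. Per kilobase of exon, the ratio of Kcne3 to Kcnq1 was thus 2.72, 5.35 and 6.20 in tdTom+ libraries and 1.63, 2.49 and 2.99 in tdTom- libraries. The ratio of Kcne2 to Kcnq1 was 0.136 at the median in tdTom+ cells and 0.00096 in tdTom- cells. Kcne1, Kcne4 and Kcne5 (listed as Kcne1l) failed the filter, with a highest count of 1, 17 and 8 in any library. The third accessory gene that passed, Kcnab3, was not called (log2 fold change 0.32, 95% interval -0.11 to 0.76). Antisense reads from the Kcnq1 locus were kept apart by the strand-specific counting, which gave its antisense transcript at most 349 counts in a library against 12989 for Kcnq1.

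Kcnma1 (ENSMUSG00000063142, chr14:23289431-24004859, minus strand), the pore of the BK channel, which opens on depolarisation and on a rise of cytosolic calcium, ranked next to Kcne2. Its levels were 43.1, 47.3 and 52.7 CPM in tdTom+ cells and 1.89, 2.40 and 3.76 CPM in tdTom- cells. The lowest tdTom+ library was far above the highest tdTom- library, and the log2 fold change was 4.13 (SE 0.11, edgeR adjusted p = 2.14e-15), or 17.5-fold, with 4.34 in mice 1 to 3 and 3.83 in mice 5 to 8. An unnamed gene on the same strand overlaps Kcnma1 and held at most 96 counts in a library against 1222. Lrrc26, the auxiliary subunit that allows BK channels to open near the resting voltage, was at 90.0, 104 and 116 CPM against 10.1, 15.3 and 19.2 CPM. These ranges were also separate, and the log2 fold change of Lrrc26 was 2.93 (SE 0.10, edgeR adjusted p = 5.77e-14). The beta subunits Kcnmb1, Kcnmb2, Kcnmb3 and Kcnmb4 failed the filter, with highest counts of 4, 27, 3 and 12. Per kilobase, Kcnma1 was at 0.082 of the level of Lrrc26 at the median in tdTom+ cells and at 0.036 in tdTom- cells.

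Both remaining calcium-activated channels that passed belonged to the Kcnn subfamily, which is gated by calmodulin and not by voltage, and they moved in opposite directions. Kcnn1, a small-conductance channel best known from neurons, was at 0.90, 1.33 and 1.81 CPM in tdTom+ cells and 0.16, 0.44 and 0.84 CPM in tdTom- cells. The ranges were separate although narrow in counts, with a highest count of 38, and the log2 fold change was 1.65 (SE 0.29, edgeR adjusted p = 8.37e-05). Kcnn4, the intermediate-conductance channel of secretory epithelia, was at 50.9, 55.2 and 73.1 CPM against 58.3, 68.1 and 92.7 CPM. Its ranges overlapped, yet it was lower in the tdTom+ library of every mouse, by a log2 fold change of -0.24 (SE 0.048, edgeR adjusted p = 2.4e-04). This call depended on the pairing: without the mouse as a block the adjusted p was 0.0235 in edgeR, and in mice 1 to 3 it was 0.16 with a log2 fold change of -0.15. Kcnn1 also missed the threshold in mice 1 to 3 (edgeR adjusted p = 0.0176).

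Voltage-gated alpha subunits of the ether-a-go-go (Kcnh) subfamily accounted for 3 of the higher genes. Kcnh3 (ENSMUSG00000037579), a subunit of the Elk branch that activates near the resting voltage, was at 61.0, 83.8 and 107 CPM in tdTom+ cells and 6.46, 9.24 and 10.96 CPM in tdTom- cells. Its log2 fold change of 3.27 (SE 0.075, edgeR adjusted p = 4.33e-16) rested on separate ranges and was 3.39 in mice 1 to 3 and 3.11 in mice 5 to 8. Kcnh2, the human homologue of which (hERG) repolarises the heart, was at 15.8, 18.7 and 20.4 CPM against 2.12, 4.28 and 5.74 CPM. Again no libraries overlapped, and its log2 fold change was 2.19 (SE 0.13, edgeR adjusted p = 7.9e-11). Its near relative Kcnh6 was at 9.58, 10.3 and 11.6 CPM against 1.90, 5.04 and 7.06 CPM, a log2 fold change of 1.23 (SE 0.16, edgeR adjusted p = 1.9e-06). The tdTom- libraries spread more widely than the tdTom+ libraries in proportion to their level for Kcnh2 and Kcnh6, and that of mouse 4 was the lowest for both. Kcnh1, of the Eag branch, differed in the other direction, with 0.10, 0.34 and 0.57 CPM in tdTom+ and 0.38, 0.99 and 1.36 CPM in tdTom- cells. Its ranges overlapped at the edge, and the log2 fold change was -1.38 (SE 0.24, edgeR adjusted p = 6.13e-05; 0.0125 in mice 1 to 3). Kcnh1 failed the filter in mice 5 to 8, and only 1 of 8 tdTom+ libraries was over the filter level. The other Kcnh genes tested, Kcnh7 and Kcnh8, were not called, with log2 fold changes of 0.10 (95% interval -0.35 to 0.54) and -0.46 (-0.78 to -0.15).

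Subunits that are electrically silent on their own were also split. Kcnv2, Kcnf1 and Kcns3 form no channel alone and modify Kcnb (Kv2) pores with which they assemble. Kcnv2 was at 1.75, 2.44 and 3.71 CPM in tdTom+ cells against 0.078, 0.31 and 0.43 CPM, a log2 fold change of 3.25 (SE 0.21, edgeR adjusted p = 3.5e-10). Kcnf1 was at 21.0, 23.6 and 25.3 CPM against 5.23, 8.45 and 13.0 CPM, a log2 fold change of 1.47 (SE 0.10, edgeR adjusted p = 9.91e-10). Both were thus higher in every tdTom+ library than in any tdTom- library. Kcns3 (ENSMUSG00000043673) ran the other way, with 0, 0.12 and 0.28 CPM in tdTom+ cells and 0.62, 1.69 and 2.44 CPM in tdTom- cells. At most 5 counts were found in a tdTom+ library and 51 in a tdTom- library, and the log2 fold change was -3.75 (SE 0.27, edgeR adjusted p = 1.23e-09). The pore Kcnb2 followed Kcns3, at 0.16, 0.52 and 0.76 CPM against 0.84, 2.14 and 2.97 CPM, with separate ranges and a log2 fold change of -2.06 (SE 0.23, edgeR adjusted p = 3.2e-07).

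Further voltage-gated subunits included the gene with the lowest fold change. Kcnc1 (ENSMUSG00000058975), a fast Kv3 delayed rectifier of rapidly firing cells, was at 0.051, 0.21 and 0.43 CPM in tdTom+ cells and 1.30, 3.02 and 6.01 CPM in tdTom- cells. No tdTom+ library held more than 8 counts, against up to 115 in tdTom- libraries, and the log2 fold change was -3.84 (SE 0.24, edgeR adjusted p = 1.53e-10), with -3.55 in mice 1 to 3 and -4.19 in mice 5 to 8. Kcnd1, an A-type Kv4 subunit that inactivates rapidly, was higher in tdTom+ cells, at 1.81, 3.60 and 5.73 CPM against 0.66, 0.86 and 1.37 CPM. The log2 fold change of Kcnd1 was 1.93 (SE 0.20, edgeR adjusted p = 1.78e-07). Kcnd3, of the same subfamily, was not called (log2 fold change -0.03, 95% interval -0.63 to 0.58).

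**Figure D2:**
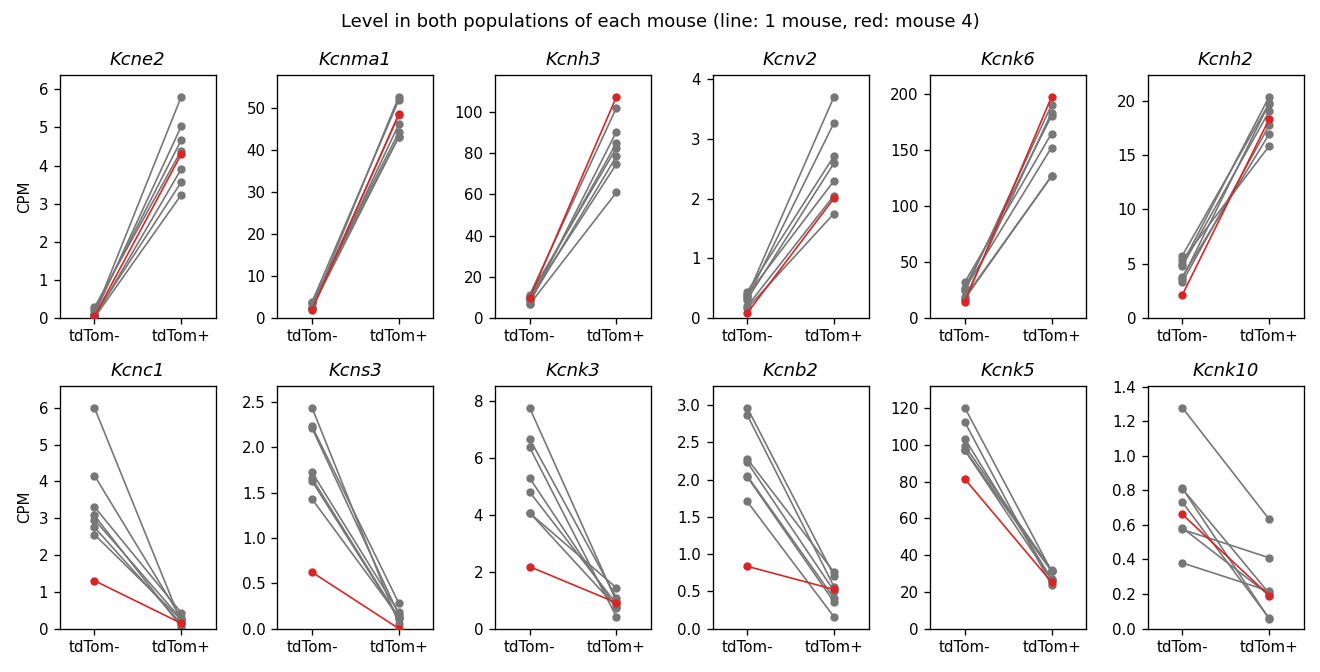
Levels in CPM (y axis, linear from 0, 1 scale per gene) of the 6 called channel genes with the highest and the 6 with the lowest log2 fold change, in both populations (x axis) of each of the 8 mice. Each line joins the tdTom- and tdTom+ libraries of 1 mouse, and mouse 4 (red) has the lowest tdTom- level of Kcnc1, Kcns3, Kcnk3, Kcnb2 and Kcnk5 among the lower genes.

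The 2-pore-domain (Kcnk) channels, which carry background potassium current at rest, moved in both directions. Kcnk1 and Kcnk6, both of the TWIK branch, were higher in tdTom+ cells. Kcnk6 (ENSMUSG00000046410) was at 126, 172 and 197 CPM against 14.2, 20.9 and 31.6 CPM, a log2 fold change of 2.95 (SE 0.12, edgeR adjusted p = 4.43e-13). Kcnk1 (ENSMUSG00000033998) was at 157, 172 and 199 CPM against 76.8, 83.9 and 93.6 CPM, a log2 fold change of 1.05 (SE 0.046, edgeR adjusted p = 1.07e-12). Its ratios within the mice spanned only 0.91 to 1.17 on the log2 scale. Kcnk3 and Kcnk5, named TASK channels for their sensitivity to acid, were lower. For Kcnk5 (ENSMUSG00000023243) the tdTom+ libraries were at 23.5, 29.2 and 32.0 CPM and the tdTom- libraries at 81.4, 98.3 and 120 CPM, a log2 fold change of -1.82 (SE 0.066, edgeR adjusted p = 8.8e-14). Kcnk3 was at 0.42, 0.89 and 1.44 CPM against 2.18, 5.05 and 7.77 CPM, a log2 fold change of -2.45 (SE 0.21, edgeR adjusted p = 1.3e-08). In all 4 genes the libraries of the 2 populations were separate. Kcnk10, a mechanosensitive channel of the TREK branch, was lower at 0.056, 0.20 and 0.63 CPM against 0.38, 0.70 and 1.28 CPM, with overlapping ranges and a log2 fold change of -1.54 (SE 0.31, edgeR adjusted p = 2.83e-04). Only 1 of 8 tdTom+ libraries was over the filter level for Kcnk10, and it failed the filter in mice 1 to 3. Kcnk16 was not called (log2 fold change -0.92, 95% interval -1.94 to 0.09).

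Inward rectifiers were scarce. Kcnj2, a classical strong rectifier that holds cells near the potassium equilibrium, was the only one of 15 to pass the filter. It was at 2.39, 3.06 and 4.04 CPM in tdTom+ cells and 1.05, 1.42 and 2.20 CPM in tdTom- cells, a log2 fold change of 1.06 (SE 0.14, edgeR adjusted p = 4.26e-06). The components of ATP-sensitive channels were mostly near the floor. The pore Kcnj11 had 101 counts over the tdTom+ and 80 over the tdTom- libraries and the alternative pore Kcnj8 4 and 120, while the sulfonylurea receptor Abcc9 had 25 and 14. The other receptor, Abcc8, passed the filter with 4.84, 6.53 and 13.5 CPM against 3.85, 5.02 and 9.69 CPM. Its ranges overlapped, and it was higher in 7 of 8 mice with a log2 fold change of 0.52 (SE 0.14, edgeR adjusted p = 0.00324), a call that was lost without the pairing (edgeR adjusted p = 0.0417), without mouse 8 (0.0109), in mice 1 to 3 (0.46, edgeR adjusted p = 0.0306) and in mice 5 to 8 (0.29, edgeR adjusted p = 0.104).

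The tdTom- library of mouse 4, the most deeply sequenced, was the lowest of the 8 for 15 of the 29 channel genes, at low and high levels and in both directions of change, and the highest for Kcnq1 and Kcnn4. The 15 included Kcnc1, Kcns3, Kcnk3, Kcnb2 and Kcnk5 as well as Kcnma1, Kcnk6, Kcnh2, Kcnh6 and Kcnv2. The share of all genes tested that were lowest in that library was not computed. The 15 therefore cannot be read as a trait of the channel genes. The summed enteroendocrine markers were also lowest in that library, at 1381 CPM against 1747 to 4046 CPM in the other tdTom- libraries, as were the summed tuft (111 CPM), absorptive (7738 CPM) and goblet (2294 CPM) markers. The summed stem and proliferation markers were highest there, at 1023 CPM. The part of these differences in cell content in the levels of the channel genes was not tested. Without mouse 4 the counts were again 12 higher and 9 lower, and the log2 fold changes were -3.88 for Kcnc1, -3.65 for Kcns3, -2.59 for Kcnk3, -2.23 for Kcnb2 and 5.36 for Kcne2.

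Levels per length showed which channel transcripts predominated. In CPM per kilobase of exon, the 93 genes summed to 292, 310.1 and 355.7 in tdTom+ libraries and to 240, 260.3 and 300.3 in tdTom- libraries. The ranges of these sums overlapped, but the tdTom+ sum was above the tdTom- sum in 8 of 8 mice, and a few genes dominated both. In tdTom+ cells the first 3 were Kcne3 with 29.0 ± 4.46% of the sum (SD, n = 8), Kcnk1 with 24.2 ± 1.03% and Kcnk6 with 12.8 ± 1.96%, together 61.0% to 68.4% of a library's sum. In tdTom- cells they were Kcne3 with 38.1 ± 2.27%, Kcnq1 with 15.8 ± 2.73% and Kcnk1 with 13.9 ± 0.828%, together 64.2% to 70.3%. The order thus changed below Kcne3. Kcnk6 stood at 2.04 ± 0.654% in tdTom- cells and Kcnh3 went from 0.935 ± 0.16% in tdTom- to 7.53 ± 1.07% in tdTom+ cells. Kcnq1 had 5.79 ± 0.952% and Kcnk5 2.71 ± 0.418% in tdTom+ cells, where Kcnk5 had 11.4 ± 1.70% in tdTom- cells. Kcnn4 had 9.06 ± 0.881% in tdTom+ and 12.8 ± 1.49% in tdTom- cells. In tdTom- cells the shares of Kcnq1, Kcnk1, Kcnn4 and Kcnk5 each differed from the next by less than the larger SD of the pair. The ratio of Kcnk1 to Kcnk5 was 7.80, 8.42 and 10.98 in tdTom+ libraries and 0.984, 1.26 and 1.52 in tdTom- libraries, without overlap. The genes with the greatest fold changes contributed little to the sum, with 0.783 ± 0.133% for Kcne2 and 2.31 ± 0.13% for Kcnma1 in tdTom+ cells. Exon lengths are the union over annotated transcripts, so the level of a gene that uses a short transcript is understated.

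**Figure D3:**
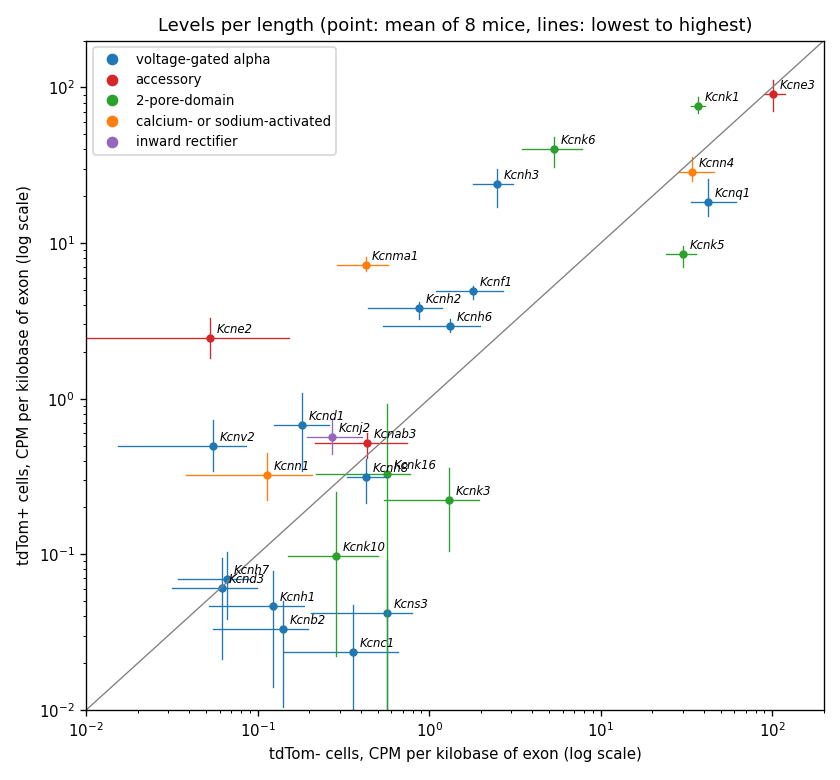
Mean level of 27 of the 29 channel genes that passed the filter in tdTom- (x axis) and tdTom+ cells (y axis), in CPM per kilobase of exon on log scales, coloured by class, with lines from the lowest to the highest of 8 libraries and the diagonal of equal levels in grey. Lines that meet the left or lower edge continue to libraries under 0.01, 0 included. Kcne3, Kcnk1, Kcnk6, Kcnn4, Kcnq1, Kcnh3 and Kcnk5 are the abundant genes, and Kcne2 lies farthest above the diagonal.

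**Figure D4:**
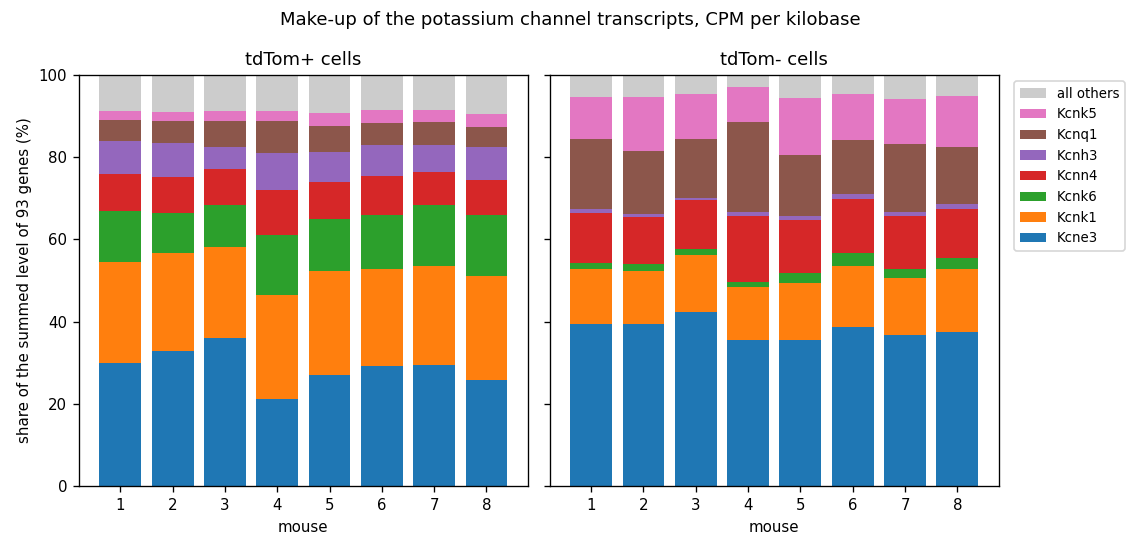
Share in percent (y axis) of the summed CPM per kilobase of 93 channel genes taken by 7 abundant genes and by all others (grey), in each library (x axis, mouse number) of tdTom+ (left) and tdTom- cells (right). Kcnk6 (green) and Kcnh3 (purple) take larger shares in every tdTom+ library, and Kcnq1 (brown) and Kcnk5 (pink) in every tdTom- library.

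Most channel genes gave too few counts to be compared. Of the 64 that failed the filter, 16 had 0 counts everywhere, 26 reached 1 to 9 counts in their highest library and 22 reached 10 to 35. A count of 0 allows up to 3 counts, or 0.066 to 0.18 CPM depending on the library, which covers counting error only, so low expression of these genes was not detectable at this depth. With the filter removed, 48 of the 64 had a count to test, of which 2 were higher and 8 lower, where 18.1% and 18.2% of the 27559 genes then tested were called in these directions and 36.3% in either. The higher genes were Kcnj13 (60 counts over tdTom+ and 7 over tdTom- libraries, log2 fold change 3.20, edgeR adjusted p = 9.27e-07) and Kcnk2 (40 and 5 counts, 3.14, edgeR adjusted p = 1.84e-04). Among the lower genes Kcnj8 (4 and 120 counts), Kcnj5 (9 and 146) and Kcnn3 (5 and 90) did not overlap between the populations, and Kcnj13 did not either. These genes were picked by their calls, so the lack of overlap is no separate support. Its share over all unfiltered genes was not computed. Lower genes with overlapping counts were Kcnc4, Kcnip3, Kcnmb2 and Kcnab2.

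The genes that move potassium beside these channels were taken from a list of 43 pumps, cotransporters, partner subunits, regulators and related channels. Of these 23 passed the filter, 10 were higher and 9 lower, where 28.4% and 28.9% of all genes tested were called, and their median log2 fold change was 0.004. The beta subunits of the sodium pump differed modestly, by 0.47 (SE 0.047) for Atp1b3 and -0.19 (SE 0.050) for Atp1b1, a call that was lost without the pairing (edgeR adjusted p = 0.0116), in mice 1 to 3 (0.222) and without mouse 5, 6 or 8 (0.0103, 0.0119 and 0.0107). The small FXYD regulators of the pump were divided strongly. Fxyd3 was at 129, 148 and 227 CPM in tdTom+ cells against 19.7, 27.3 and 33.5 CPM, a log2 fold change of 2.60 (SE 0.076, edgeR adjusted p = 6.16e-15). Fxyd4, known as corticosteroid hormone-induced factor, was at 0.51, 2.29 and 3.37 CPM against 14.5, 24.5 and 48.0 CPM, a log2 fold change of -3.66 (SE 0.11, edgeR adjusted p = 1.49e-14). Fxyd5 was lower as well (-3.50, SE 0.28), at levels no higher than 2.64 CPM. It passed the filter solely through the tdTom- cells, with 0 tdTom+ libraries over the filter level and at most 5 counts in any of them.

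Transcripts of transporters that carry potassium into or out of cells also differed between the populations. Slc12a2, the basolateral sodium-potassium-chloride cotransporter that loads cells with chloride, was at 854, 951 and 1089 CPM in tdTom+ cells and 429, 532 and 787 CPM in tdTom- cells, without overlap and with a log2 fold change of 0.77 (SE 0.066, edgeR adjusted p = 1.34e-08). Its activating kinase Stk39 was higher (1.25, SE 0.059) and the related kinase Oxsr1 lower (-0.44, SE 0.043), and the upstream kinase Wnk4 was higher (0.69, SE 0.065). The potassium-chloride cotransporter Slc12a7 was lower (-0.61, SE 0.050). Atp12a, the colonic proton-potassium pump that recovers luminal potassium, was at 37.1, 65.9 and 104 CPM against 115, 237 and 336 CPM, a log2 fold change of -1.71 (SE 0.098, edgeR adjusted p = 5.07e-11). The cation channel Hcn2 was lower (-1.77, SE 0.12). Of the intracellular TRIC channels Tmem38b was higher (0.95, SE 0.079) and Tmem38a lower (-1.58, SE 0.12), and the lysosomal channel Tmem175 was higher (0.38, SE 0.058). Akap9, the scaffold that ties protein kinase A to Kcnq1, was higher by 0.73 (SE 0.068) where Kcnq1 itself was lower. Dpp10, Nedd4l and Wnk1 were not called.

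**Figure D5:**
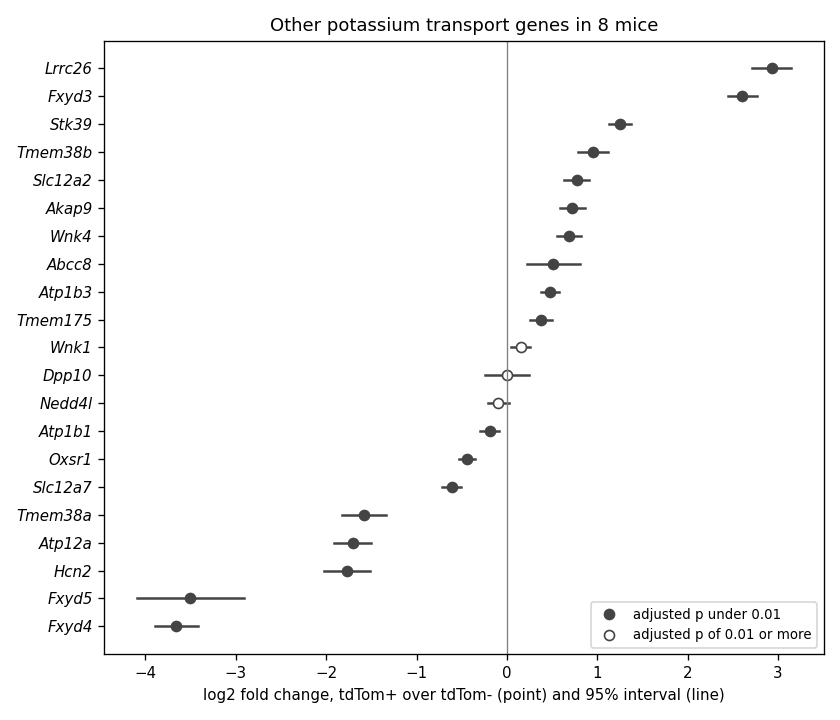
Log2 fold change between tdTom+ and tdTom- cells (x axis) of 21 of the 23 other potassium transport genes that passed the filter (y axis), with 95% intervals as lines and open points for genes with an adjusted p of 0.01 or more in edgeR. Values run from 2.93 for Lrrc26 to -3.66 for Fxyd4.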

How the data were processed

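RNA was measured in 16 libraries, EpCAM+ tdTom+ and EpCAM+ tdTom- cells from the colon of 8 mice. Libraries from the small intestine were not used here. The authors made stranded mRNA libraries, sequenced them as 50-base single-end reads and, per the labels' processing notes, used TopHat2 2.1.1, Subread 1.5.2 and DESeq2 1.14.1 with GRCm38.p3. They deposited counts per gene, which the file headers say came from featureCounts 1.5.0-p1 on exons, reverse strand, primary alignments. Such counting may drop or share out reads that match paralogs equally well.

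Symbols of 44585 genes came from GENCODE M21, and 5 antisense transcripts were left out. The members, gene lists and tests were chosen with earlier results of these data known. Named are the 12 highest and 12 lowest called channel genes (9 were lower), the Kcne genes with Kcnq1, Kcnma1 with its partners, Kcnn4, the ATP-sensitive channel genes and the 3 most abundant per population. Members that failed the filter are counted or named with their counts. Some genes are counted but not reported here by name.

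All counts were fitted with the quasi-likelihood test of edgeR 4.0.16 (R 4.3.3) after filterByExpr and TMM scaling, with the mouse as a block and Benjamini-Hochberg adjustment over 15841 genes. The titles give both libraries of a mouse 1 number. Deviations from the group means correlated within each mouse (0.223 to 0.408), above the highest value between mice (0.168). Standard errors are the log2 fold change over the square root of F, CPM uses TMM library sizes, and log2 CPM a prior count of 2. Replicates are separate mice, and no libraries of a group agreed within sampling noise. Alternatives were no block, DESeq2 1.42.0, limma-voom (limma 3.58.1), RLE and upper-quartile scaling, all genes unfiltered or only those with 10 counts or more in each library, an adjusted p of 0.05, mice 1 to 3 or 5 to 8 (the titles fall into 3 number series whose meaning is not given), and each mouse left out. The fits were tested on simulated data with 200 changed genes, all with a mean over 1 CPM. The main fit recovered 188 of these and made 1 false call. Recovery of changes in genes at lower levels was not tested. Tables were made with Python 3.11.15 and pandas 2.3.3.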

Additional observations from a re-analysis of the deposited data

Results flagged for a closer look

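Of 90 groups of 8 libraries, 5 held a library far from the others, where chance gives about 1 in 20, or 4.5. Kcns3 in tdTom- cells was at -0.48 log2 CPM in mouse 4, against 0.61 to 1.34 in the others. Kcnb2 in tdTom- cells was at -0.11 in mouse 4, against 0.85 to 1.61. Kcnq1 in tdTom+ cells was at 6.72 in mouse 4, against 5.93 to 6.29. Abcc8 in tdTom- cells was at 3.29 in mouse 1, against 1.98 to 2.57, and Stk39 in tdTom- cells was at 4.72 in mouse 2, against 5.14 to 5.49. The cause was not tested for any of them.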

How the results depend on the processing

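The 12 higher channel genes became 14 with DESeq2 or without the filter, 9 with a minimum of 10 counts in every sample and 11 in mice 1 to 3, and stayed at 12 in number under the other alternatives. The number of lower channel genes, 9 in the main fit, was 17 with DESeq2, 17 without the filter and 4 with a minimum of 10 counts in every sample. These 3 alternatives by construction test more or fewer genes of low count. With the minimum of 10 counts, the 4 lower genes were not all among the 9. Of the 9, Kcnb2, Kcnc1, Kcnh1, Kcnk10, Kcnk3 and Kcns3 each had a library with fewer than 10 counts. Leaving out a mouse gave 12 to 12 higher genes, 8 to 10 lower genes and 17 to 20 changed genes among the other potassium transport genes (19 with all mice). Without the replicate block that pairs the libraries of a mouse, there were 12 higher, 8 lower and 17 other genes, and Kcnn4, Abcc8 and Atp1b1 lost their calls. Over 45 genes and 795 values under alternatives, 776 kept their direction and side of the threshold, 14 no longer passed, 5 newly passed and 0 reversed. Those that no longer passed were values of Kcnn1, Kcnh1, Kcnn4, Abcc8, Atp1b1 and Tmem175. The 45 genes were the called channel genes, Kcne3 and the other potassium transport genes that passed the filter. Settings in which a gene was not tested were left out, so a gene removed by a filter was not counted as a lost call. Depth limits genes under the filter level of 0.517 CPM, which is 10 counts in a library of median size.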
